A study of Rattus norvegicus with 18 samples.

Results

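Nr2f2 encodes COUP-TFII, an orphan nuclear receptor, and is represented by 1 of the 2304 clones on a rat cDNA array. The clone is described here across 18 arrays of whole-kidney RNA. It was selected on its measured values, the log ratios of kidneys recovering from ischemia over sham-operated kidneys, so those values are given as a description and carry no test. The array compared 6 rats with acute renal failure (ARF), which had 52 min of kidney ischemia and 35 days of recovery, with 6 sham-operated rats. The rats formed 6 pairs named A to F, each of 1 sham and 1 ARF rat, and 2 arrays of opposite dye orientation were made of each pair. The 6 sham-sham arrays, R1 to R6, set the kidneys of 2 sham rats against each other. Strain, sex and age of the rats are not given in the sources used here, nor is how the ischemia was applied.

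COUP-TFII binds as a dimer, alone or with the retinoid X receptor, to paired copies of the nuclear receptor half-site. Many of these elements are also bound by HNF4, PPAR and other receptors, and COUP-TFII often represses transcription from them. It sets venous identity in endothelium, and in many organs, the kidney among them, it is found in mesenchyme, fibroblasts and pericytes. The array measured bulk RNA, in which fewer cells of a type and less RNA per cell cannot be told apart.

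The values are normalized log ratios as deposited, with the log base not given. They were read as ARF over sham, so that a value above 0 means a higher level in ARF. This direction is an assumption, made from the order of the channels in the labels, and the opposite convention would turn every sign. The 2 orientations of a pair were read as already turned the same way by the authors, because they correlated above 0 across clones in every pair. The correlations were 0.58, 0.20, 0.55, 0.52, 0.40 and 0.35 in pairs A to F, over 726 to 1347 clones, and clones are not independent replicates. ARF-sham arrays held 1586 to 2786 spot values and sham-sham arrays 914 to 2232, of 4608 spots each, and each array's mean was 0. Proximal tubule (Lrp2, Cubn), thick limb (Umod, Slc12a1) and collecting duct (Aqp3) markers had a value on all 12 ARF-sham arrays. The rows of the sham-sham columns appeared to stand in another order than those of the ARF-sham columns. This was inferred from which spots held a value, and adjacent blocks of 288 rows were exchanged to bring the rows together. All sham-sham values below rest on it unless the order as deposited is named. This choice was made after the values were seen. With it, the 64 spots of ribosomal protein genes held a value in 77.3% of the sham-sham cells, against 31.2% in the order as deposited and 92.5% on the ARF-sham arrays. These shares are no independent support, because the block size was picked to match where the ARF-sham arrays held a value. Over rows, the shares of arrays with a value correlated at 0.70 in the chosen order and at -0.014 as deposited.

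Nr2f2 lay above 0 in all 6 pairs once both dye orientations were averaged. The pair means were 0.27 in pair A, 0.29 in B, 0.17 in C, 0.11 in D, 0.39 in E and 0.33 in F. Pair D was lowest and pair E highest, and no pair was at or below 0. The mean over pairs was 0.26 ± 0.10 (SD, n = 6), with a median of 0.28. Read as base 2 this is a 1.20-fold higher level in ARF, as natural log 1.30-fold, and as base 10 1.82-fold. Of the 600 clones measured on both arrays of all 6 pairs, 27 (4.5%) were above 0 in every pair, and Nr2f2 is among them because it was chosen so.

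By size, the mean of Nr2f2 was modest. It ranked 55 of 947 clones measured on both arrays in at least 4 pairs, 5.7% of which had a mean farther from 0, and 26 clones had a higher mean. The median distance from 0 over these clones was 0.079. Its spread over pairs was narrower than that of most clones: the SD of 0.10 ranked 177 from the lowest, beside a median SD of 0.17. Across the same 947 clones, limma with Benjamini-Hochberg adjustment placed 9 (0.95%) past an adjusted p of 0.05 for ARF against sham, 3 (0.317%) higher and 6 lower. At an unadjusted p under 0.05 were 139 (14.7%). The count of 9 past the adjusted threshold rested on single pairs. It was 4, 1, 19 and 18 without pair A, B, C and D, and 0 without pair E or F, where 68 and 59 clones had an unadjusted p under 0.05.

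The means hid a difference between the dye orientations. With sham in Cy3, Nr2f2 read -0.18, -0.14, -0.070, -0.34, 0.20 and 0.45 in pairs A to F. With sham in Cy5, it read 0.72, 0.71, 0.41, 0.56, 0.58 and 0.22. On the first set of arrays 4 of 6 pairs were below 0, and on the second all 6 were above 0. The orientation means were -0.014 ± 0.29 and 0.53 ± 0.19 (SD, n = 6 each). The 2 ranges overlapped between 0.22 and 0.45. The mean of the first set was near 0, and that of the second lay above 0 by more than its SD.

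**Figure D1:**
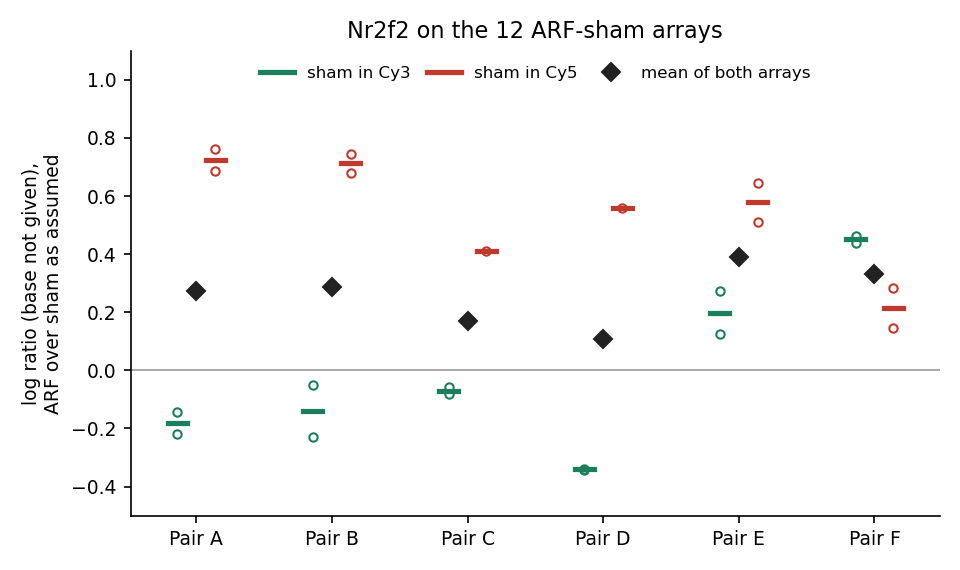
Nr2f2 log ratio (y axis, base not given, ARF over sham as assumed) in each of the 6 pairs (x axis). Circles are single spots, bars the mean of the spots of an array, diamonds the mean of both arrays. In pairs A to E the array with sham in Cy5 lies above the one with sham in Cy3, and in pair F below it; all 6 diamonds are above 0, from 0.11 to 0.39.

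The spots of a clone agreed far better than the orientations did. On the 10 ARF-sham arrays with both spots, the spots differed by 0.0019 to 0.18, with a mean of 0.086. The orientations differed by 0.91, 0.85, 0.48, 0.90 and 0.38 in pairs A to E, with sham in Cy5 higher, and by 0.24 in pair F, with sham in Cy3 higher. The arrays of pairs C and D with sham in Cy5 rest on 1 spot each. Every one of these 6 gaps was larger than the largest spot difference.

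The dye effect, the value with sham in Cy3 minus that with sham in Cy5 divided by 2, does not enter the pair means and was tested. For Nr2f2 it was -0.27 (SE 0.070, n = 6 pairs, SD 0.22), which under the assumed direction means a brighter Cy3 signal, and it was below 0 in 5 of 6 pairs. By limma with Benjamini-Hochberg adjustment over the 947 clones it passed (adjusted p = 0.0303). Leaving out pair B, C or D ended the call (adjusted p = 0.0572, 0.0678 and 0.0831), and without pair F it was -0.35 (adjusted p = 0.0037). Read against all clones, 152 of 947 (16.1%) passed, 53 (5.6%) in this direction and 99 (10.5%) toward Cy5. A dye effect past the threshold was therefore common on these arrays. Most of the 53 clones carried no single gene symbol, so the share toward Cy3 was lower among named genes. The count of 152 became 73, 55 and 61 without pair C, D and E. In size, that of Nr2f2 ranked 2 of 947 and 1 of the 600 clones measured in all 6 pairs, beside a median size of 0.073. Among named clones with a dye effect near it were Akt2 at -0.25 (n = 4) and Ide at -0.25 (n = 4), and the largest in the other direction was that of Rpl18-ps7, at 0.26 (n = 6). The mean ARF-sham value of Nr2f2 and its dye effect were of like size, 0.26 and 0.27.

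**Figure D2:**
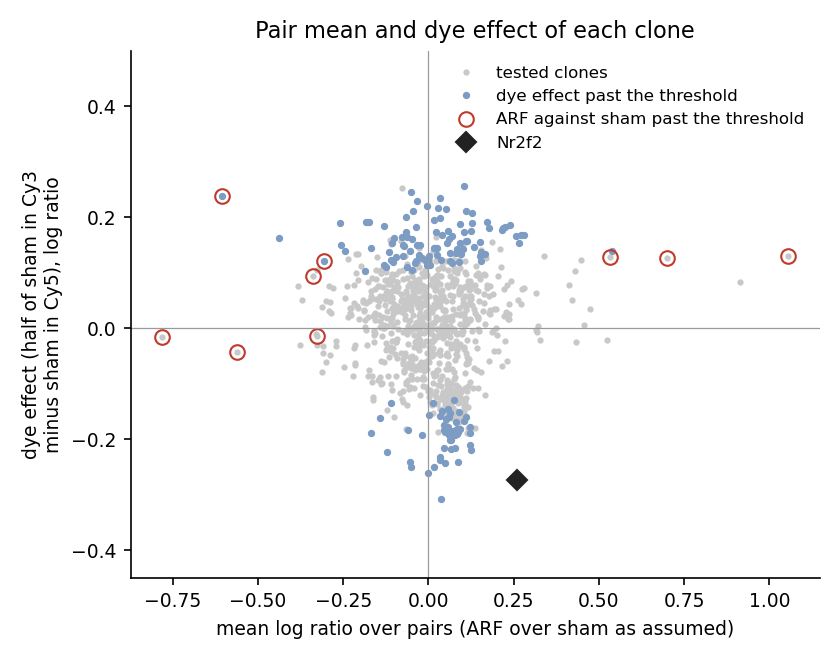
Dye effect (y axis, log ratio, base not given) against mean pair value (x axis, log ratio, ARF over sham as assumed) for the 947 clones measured on both arrays in at least 4 pairs, one point a clone; blue points have a dye effect past the threshold and red circles mark the 9 clones past it for ARF against sham. Nr2f2, the black diamond at a mean of 0.26 and a dye effect of -0.27, lies to the right of the other clones whose dye effect toward Cy3 passed the threshold.

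On the sham-sham arrays, where no ARF kidney was present, Nr2f2 also departed from 0. It read 0.13 on R1 (rats F over A), -0.25 on R2 (E over A), -0.23 on R4 (D over B), -0.51 on R5 (F over C) and -0.27 on R6 (E over D), and had no value on R3. R1, R4 and R5 rest on 1 spot. Of these 5 arrays 4 were below 0, the mean was -0.23 ± 0.23 (SD), and the median distance from 0 was 0.25. These are single arrays of 1 dye orientation, while the ARF-sham mean of 0.26 averages both. The arrays share rats, and no test was made.

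The dye of each sham-sham channel is not given, and channel 1 was taken as Cy3, as the labels put it on the ARF-sham arrays. With the dye effect of -0.27 taken off, an alternative added after seeing the data, the values were 0.40, 0.025, 0.046, -0.24 and 0.0044. Arrays R2, R4 and R6 then lay within 0.046 of 0, and R1 and R5, which both hold rat F, lay farthest. The mean became 0.047 and the median distance from 0 became 0.046. In the row order as deposited only 2 arrays held a value at the Nr2f2 rows, with a mean of 0.13.

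Of the 947 clones, 668 had at least 4 sham-sham values. Their median was -0.022, with 377 below 0 and 291 above, and 44 had a lower mean than Nr2f2. Few of the clones with a dye effect past the threshold toward Cy3 were among the 668. Nr2f2 left out, 11 were, and 11 of 11 had a mean below 0 (median -0.21). Of those toward Cy5 87 were, and 70 of them had a mean above 0 (median 0.10). The part of the dye in the sham-sham values of Nr2f2 was not tested.

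**Figure D3:**
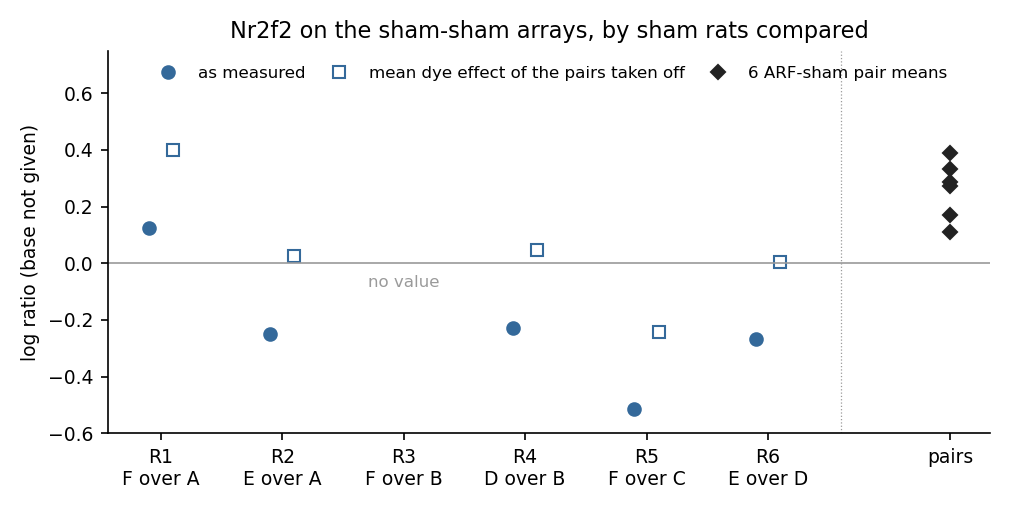
Nr2f2 log ratio (y axis, base not given) on the sham-sham arrays by the sham rats compared (x axis, channel 2 over channel 1). Filled circles are values as measured and open squares the same with the dye effect of -0.27 taken off; the black diamonds at the right are the 6 ARF-sham pair means, 0.11 to 0.39.

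The arrays share rats, so a level for each rat was fitted from the 17 arrays with an Nr2f2 value, relative to the mean of the 12 rats. Without a dye term the sham rats A to F stood at -0.26, -0.013, 0.38, -0.24, -0.51 and -0.14. The ARF rats stood at 0.010, 0.27, 0.55, -0.13, -0.12 and 0.20. The groups overlapped, with sham rat C above 5 of the 6 ARF rats. Group means were -0.13 ± 0.30 and 0.13 ± 0.26 (SD, n = 6 each), and the SD within either group was no smaller than the difference of 0.26 between them. These SDs are taken over rats and leave out the pairing. Over the 6 pairs the difference had an SD of 0.10.

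With a dye term the order among rats changed. The group means could not change, because each pair holds both orientations and the fitted ARF-sham difference of a pair is its pair mean. The fit is therefore no further check on the pair means. Sham rats then stood at -0.31, -0.33, 0.33, -0.29, -0.28 and 0.093, and ARF rats at -0.035, -0.046, 0.51, -0.18, 0.11 and 0.43. Sham rats A, B, D and E lay between -0.33 and -0.28, and C and F were the highest of each group. The sham rats are linked by 5 arrays only, so each of these levels leans on single arrays.

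**Figure D4:**
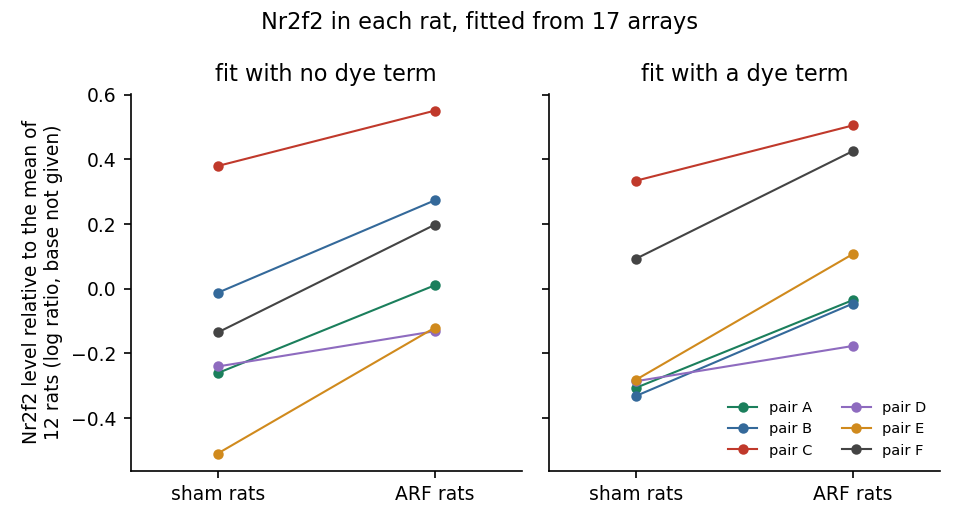
Fitted Nr2f2 level of each rat (y axis, log ratio to the mean of the 12 rats, base not given) in the sham and ARF groups (x axis), lines joining the rats of a pair, without (left) and with (right) a dye term. Every line rises by its pair mean, which the fit fixes in both panels, and the sham and ARF ranges overlap in both.

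Nr2f2 was set beside the other nuclear receptors, transcription factors of one family that often share DNA elements. Of 46 listed, 12 had a clone and 4 were measured well enough to test. None of the 4 passed for ARF against sham (limma, adjusted p from 0.0546 to 0.651; 3 had an unadjusted p under 0.05, as did 139 of all 947 clones), with a median of 0.12 beside 0.015 over all 947 clones. The closest relatives gave little: the Nr2f1 (COUP-TFI) clone had no ARF-sham value, and Nr2f6 (EAR2) had 8 arrays, from -0.21 to 0.41.

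Thra, the thyroid hormone receptor alpha, read -0.033, 0.089, 0.22, 0.27, 0.41 and 0.18 in pairs A to F, a mean of 0.19 ± 0.15 (SD, n = 6, limma adjusted p = 0.195). It was above 0 in 5 of 6 pairs, with pair E highest, as for Nr2f2. The other pairs did not follow the same order: pair A was lowest for Thra, and pair D, lowest for Nr2f2, came next after E. Rara, a retinoic acid receptor, averaged 0.18 ± 0.13 (SD, n = 4, adjusted p = 0.338). Nr1h2, the oxysterol receptor LXR beta, averaged 0.066 ± 0.12 (SD, n = 5, adjusted p = 0.651). Nr1d1 (REV-ERB alpha), a repressor of the circadian clock, was the one below 0, at -0.38 ± 0.10 (SD, n = 4), and missed the threshold (limma adjusted p = 0.0546). It passed under 7 of 14 other settings, with an adjusted p from 0.0142 to 0.24.

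None of these 4 receptors had a dye effect past the threshold (the values were -0.0048, 0.032, -0.028 and -0.031), and that of Nr2f2 was -0.27. Over all 947 clones 152 (16.1%) passed, 53 (5.6%) of them toward Cy3, so none among 4 lies near the share over all clones. Most of the 53 carried no single gene symbol, so 5.6% is not a share of named genes. Whether the dye effects differ between genes was not tested. Of 28 listed cofactors and partners of COUP-TF, 3 had a clone and 1 was tested, the transcription factor Ets1, at -0.095 ± 0.17 (SD, n = 6, limma adjusted p = 0.525).

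**Figure D5:**
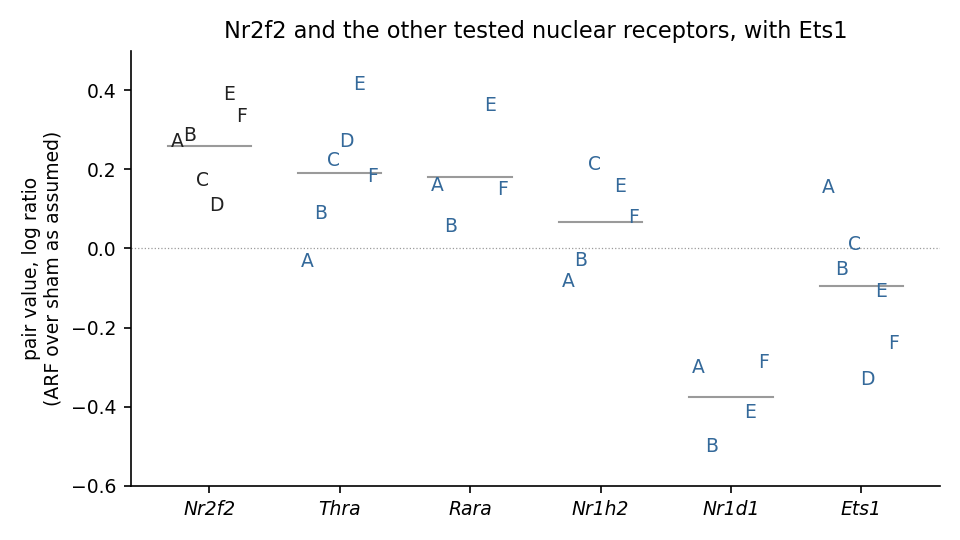
Pair values (y axis, log ratio, base not given, ARF over sham as assumed) of Nr2f2, the 4 other nuclear receptors that were tested and the partner Ets1 (x axis). Each letter is a pair and each bar the mean over pairs; Nr2f2 is above 0 in all 6 pairs and Nr1d1 below 0 in each of its 4.

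Genes whose promoters bear elements shared by COUP-TF and HNF4, PPAR or RXR gave no call. Of 35 listed, 7 were tested by limma and none passed, with a median of 0.0044, and 1 had an unadjusted p under 0.05. Over all 947 clones 9 (0.95%) passed and 139 (14.7%) had an unadjusted p under 0.05, the shares to set beside every list in this paragraph. The counts of this list lie near them. Farthest from 0 were Tf (transferrin) at 0.27 ± 0.39, Cpt1a, a mitochondrial fatty acid importer, at -0.20 ± 0.19, and Acadm, a fatty acid dehydrogenase, at -0.11 ± 0.16 (SD, n = 6 each). Vessel genes were thin on the array: of 30 listed, Vegfa at 0.12 ± 0.15 (n = 5) and Pdpn at 0.025 ± 0.16 (n = 6) were tested and neither passed, at an unadjusted p under 0.05 either. None of 6 glycolysis genes (median -0.00080) and none of 4 TGF-beta, BMP, hedgehog and WNT genes (median -0.032) passed, and 0 had an unadjusted p under 0.05. Of 2 retinoid genes tested, Rbp4, the retinol carrier of plasma, was lower, at -0.78 ± 0.40 (SD, n = 6, limma adjusted p = 0.0284). The Rbp4 call was lost without pair B, E or F (adjusted p = 0.0513, 0.09 and 0.258).

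Fibroblast, pericyte and mesangial markers, the cells in which COUP-TFII is known, were above 0 in most cases. Of 31 listed, 17 had a clone and 11 were tested, 9 of them above 0, with a median of 0.28. Over all 947 clones 512 were above 0, with a median of 0.015. By limma 6 of the 11 had an unadjusted p under 0.05, beside 139 (14.7%) of all 947 clones. Of the 11, 2 rose, beside 3 of 947 clones in all: S100a4, a calcium binder of motile fibroblasts, at 0.70 ± 0.23, and the collagen Col1a1 at 0.53 ± 0.21 (SD, n = 4 each, limma adjusted p = 0.0284 and 0.0482). Both calls were lost when pairs measured on 1 array were kept (0.56 and 0.36, adjusted p = 0.121 and 0.187). That of S100a4 was also lost without pair B (adjusted p = 0.0513). S100a4 had no value in pair B, so its own values were unchanged and only the fit and adjustment over the other clones moved. The list median by pair was 0.69, 0.20, -0.032, 0.035, 0.39 and 0.52 in A to F, over 11, 8, 8, 6, 11 and 11 members. The lowest medians were in pairs C and D, where Nr2f2 was lowest too, but Col1a1 and Thy1 had no value in either, nor S100a4 and Tagln in D, so the medians rest on different members. Whether these cells had a part in the Nr2f2 values was not tested. The dye effects of Dcn (0.18) and Mgp (0.14) passed toward Cy5. Toward Cy3 0 of the 11 passed, beside 53 of 947 clones, most of them without a single gene symbol.

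Markers of other cells gave 1 call, among 5 thick limb and distal tubule genes (median -0.24), beside 9 of all 947 clones. Egf, made in the distal tubule, was lower, at -0.34 ± 0.16 (SD, n = 6, limma adjusted p = 0.0482). Its call was lost without pair A, B, E or F (adjusted p = 0.0858, 0.142, 0.201 and 0.311). Umod and Slc12a1, of the thick limb, averaged -0.24 and -0.31, and Slc12a3 and Pvalb, of the distal convoluted tubule, 0.12 and 0.12, none past the threshold. None of 8 proximal tubule (median -0.11), 3 collecting duct (-0.052), 1 podocyte (-0.016), 2 smooth muscle (0.30), 4 macrophage (0.24) and 2 fat (-0.032) markers passed by limma. At an unadjusted p under 0.05 were 3, 1, 0, 2, 2 and 0 of them, beside 14.7% of all clones. Of the 5 thick limb and distal tubule genes, 3 were.

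The named clones nearest to Nr2f2 over the 6 pair values were found among 419 by the root mean square difference. They were Cx3cl1 (fractalkine) at 0.11, the tropomyosin Tpm1 at 0.12, the ribosomal proteins Rps15a and Rpl15 at 0.13 and 0.14, and the phosphatase Ptprf at 0.14, beside a median of 0.33. None had a dye effect toward Cy3 like that of Nr2f2: theirs were 0.025, 0.059, 0.18, 0.11 and 0.0084. When each clone was centred on its own mean, 0 of these 5 were among the nearest 5.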

How the data were processed

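Per the labels, 18 two-colour arrays of rat kidney RNA gave raw ImaGene data and normalized log values; the normalization, the log base and the ratio's direction are not given in the sources used here. The deposited table holds the authors' log ratios for 4608 spots, 57.1% of cells empty, each array centred on 0; nothing was renormalized. Clones were 2304 duplicate spots 1152 rows apart; 1489 carry 1 gene symbol, 32 several and 783 none, and 1483 symbols matched RefSeq by gene ID. Spots were averaged, then both arrays of a pair, giving 1 value per pair (the labels name separate rats). Clones with both arrays in at least 4 of 6 pairs (947) were fitted with limma 3.58.1 in R 4.3.3 (intercept only, eBayes, Benjamini-Hochberg, threshold 0.05); no pair of Nr2f2 was dropped. The dye effect used half-differences in the same fit. The scripts were tested on simulated data. Named are Nr2f2, members of the nuclear receptor and cofactor lists, of other lists those past the threshold or farthest from 0, and the 5 nearest clones. Nr2f2 and all lists were chosen with earlier results of these data known. No sequence of the clone, promoter or protein was used here.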

Additional observations from a re-analysis of the deposited data

Results flagged for a closer look

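Nr2f2 had different values in the 2 dye orientations of the same pairs, a dye effect of -0.2736 (SE 0.070, n = 6 pairs, limma adjusted p = 0.0303). Apoe, in the macrophage list, was -0.4796 in pair B and above 0 in the other 5 pairs, a gap of 0.708 of its range; 44 groups of pair values were examined and chance flags about 1 in 20.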

How the results depend on the processing

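The Nr2f2 mean of 0.26 turned to -0.014 when only sham in Cy3 was used and rose to 0.53 when only sham in Cy5 was; under the other settings it lay from 0.23 to 0.32, and from 0.23 to 0.29 without a pair. It is 0.26 with the pair as a replicate block and with no replicate block, settings that could not move it because every pair had both arrays. The sham-sham mean of -0.23 became 0.13 in the row order as deposited, 0.047 with the dye effect taken off, and -0.32 to -0.16 without 1 array. The Nr2f2 dye effect lay from -0.35 to -0.24 without a pair. For ARF against sham, 9 clones became 15 (median centring), 5 (1-array pairs kept), 28 (only sham in Cy3), 17 (both spots), 15 (second spot), 4 (3 pairs enough), 42 (replicate block), 29 (block with dye term), 2 and 3 (12 rat levels, without and with a dye term), and 0 to 19 without a pair. It was 0 with limma's trend and robust options, where 119 had an unadjusted p under 0.05; without pair E or F it was 0, with 68 and 59. The 4 list members called became 1, 2 (only sham in Cy5), 7 (both spots), 2 (all 6 pairs), 2 (3 pairs), 0 (trend and robust), 11 (block), 7 (block with dye term), 0 and 0 (rat levels), and 0 to 8 without a pair. Dye calls, 152, became 262 when centred within blocks of rows, and 55 to 175 without a pair. The nearest clones shared 0 of 5 after centring. Reversed genes were Ptpro 0.0021 and 0.0037 (median centring, first spot), Vegfa -0.035, Ldhb 0.062 and Lpl -0.13 (only sham in Cy3), Lpl -0.0039, Pdpn -0.081 and Smad4 0.000495 (second spot), Pdpn -0.017 and Smad4 0.0079 (only sham in Cy5), Pdpn -0.066 (both spots), and, without a pair, Pdpn (-0.020 to 0.063), Smad4 (-0.0996 to 0.0015), Ccn2 (-0.17 to 0.11) and Aqp3 (-0.015 to 0.16). Of 681 values of 37 named genes, 618 kept direction and side of the threshold. The causes were not tested. Empty cells limit what can be seen: sham rats are linked by 5 arrays, and spot intensities were not used here.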
